A study of Mus musculus with 16 samples.

Results

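The cytosolic ribosomal protein genes are the 56 listed genes that encode proteins of the large subunit (Rpl and the stalk genes Rplp0, Rplp1 and Rplp2) and of the small subunit (Rps) of the ribosome outside mitochondria. Of these, 55 were measured, out of 20972 genes with a probe, and Rpl37 was not analysed here. A gene was represented by its brightest probe, taken from the probes whose listed transcript belongs to that gene. The 55 measured genes were above background on all 16 arrays. They comprise 35 large subunit genes, 3 of them for the stalk, and 20 small subunit genes. The 56 genes are spread over 19 chromosomes.

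RNA came from the soleus, a postural hindlimb muscle rich in slow fibres, of male mice in a protocol that lowered the oxygen level step by step through the first week and held it low in the second. Genotype, strain and age are not given in the sources used here, and every sample carries the label hypoxia, day 0 included, so day 0 is the start of the protocol and no parallel group in normal air was analysed. The groups are day 0 (4 RNA samples on 6 arrays), day 3 (3 RNA samples), day 7 (3 RNA samples) and day 14 (4 RNA samples). Whether each RNA sample is a separate mouse is not given in the labels, so p-values describe the spread between these samples. A muscle extract holds several cell types, and fewer cells of one type and less RNA per cell cannot be told apart.

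The ribosome reads messenger RNA and joins amino acids into protein, and each ribosome carries 1 copy of nearly every ribosomal protein, the acidic stalk proteins apart. Cells make these proteins in balance with ribosomal RNA, and ribosome number sets much of the capacity for protein synthesis, on which muscle mass depends. Messenger RNAs of ribosomal proteins begin with a stretch of C and U, the terminal oligopyrimidine tract, through which mTOR complex 1 and the RNA-binding protein Larp1 control their translation. Low oxygen is known to restrain mTOR complex 1 through Ddit4, also called Redd1. An array measures RNA level and not translation.

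Start windows are printed for members whose values the results turn on, to show the C and T bases around each annotated start. RefSeq (GRCm38.p6) start windows were matched by symbol for 45 of the 56 members, with 53 starts. Each line runs from 60 bases before the start through the first 15 bases of the transcript. Capitals mark the longest unbroken run of C and T that holds a base within 5 bases of the start. The run may lie on either side of the start, so its length is not that of the tract in the messenger RNA. In Rpl4 the whole run lies before the start. The positions are chr9:64173327-64173401 on the plus strand for Rpl4, chr2:26910747-26910821 on the plus strand for Rpl7a, chr11:114668520-114668594 on the plus strand for Rpl38, chr4:152324376-152324450 on the plus strand for the first of the 2 starts of Rpl22, chr4:86857353-86857427 on the minus strand for Rps6, chr17:24720003-24720077 on the plus strand for Rps2 and chr7:4792905-4792979 on the plus strand for Rpl28.
Rpl4: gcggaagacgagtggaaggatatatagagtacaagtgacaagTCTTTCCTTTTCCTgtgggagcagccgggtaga
Rpl7a: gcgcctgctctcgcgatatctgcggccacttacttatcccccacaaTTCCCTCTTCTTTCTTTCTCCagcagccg
Rpl38: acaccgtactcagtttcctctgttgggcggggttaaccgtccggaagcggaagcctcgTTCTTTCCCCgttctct
Rpl22: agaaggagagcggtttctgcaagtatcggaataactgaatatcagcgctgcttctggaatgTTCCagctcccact
Rps6: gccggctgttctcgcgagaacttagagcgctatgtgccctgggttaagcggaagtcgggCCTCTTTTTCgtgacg
Rps2: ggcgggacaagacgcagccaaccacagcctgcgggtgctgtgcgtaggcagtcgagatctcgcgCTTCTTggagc
Rpl28: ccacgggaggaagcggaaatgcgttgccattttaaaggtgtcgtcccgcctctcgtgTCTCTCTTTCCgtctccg

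With bases before the start counted, the run spans 21 bases in Rpl7a, 14 in Rpl4, 11 in Rpl28, 10 in Rpl38 and Rps6, 6 in Rps2 and 4 in Rpl22. Among the 53 starts of members, 14 (26.4%) had a run of 10 bases or more, against 5.07% of the 21263 starts of protein-coding genes in the same table. With the members split by the day 7 result given further on, 6 of 22 starts (27.3%) had such a run among genes called higher at day 7, and 8 of 30 (26.7%) among measured genes not called. The full windows run from 250 bases before each start to 50 after it and were searched on both strands. CCGGAA (the core of ETS family sites) was present in 27 of 53 member starts (50.9%), against 18.7% of protein-coding starts. Among lists of translation genes described further on, it was present in 57.3% of mitochondrial ribosomal protein starts. It was present in 40.0% of starts of other cytosolic ribosomal protein genes and in 33.3% of elongation and release factor starts. GGGCGG stood in 31 (58.5%, against 46.2%), AAGATGGC in 2 (3.77%, against 3.05%) and TATAAA in 3 (5.66%, against 12.6%). These are matches of letters and were not measured as binding.

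All values below are log2 brightness minus the log2 of that array's 75th percentile over non-control spots, so 0 is the level of that percentile. The arrays lie on 2 slides of 8. Days 3 and 7 were run on slide 1 and day 14 on slide 2. All 4 day 0 RNA samples have an array on slide 2, and samples 1 and 2 have a second one on slide 1. Slide 1 was the brighter, with a 75th percentile between 203 and 271 intensity units, against 49.1 to 77.0 for slide 2. Spots above background made up 48.3% to 55.3% of slide 1 arrays, against 37.9% to 42.9% for slide 2. The number of arrays limits the precision. All 11 soleus marker genes were measured, and their summed linear level was 10776 to 11416 on day 7 arrays and 11568 to 12037 on the day 0 arrays of slide 1.

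At day 7 the ribosomal protein genes were higher than at day 0 by a median of 0.37 on the log2 scale, against 0.09 over all 22145 features. Of these features, 14107 were matched to a gene. The genes called higher numbered 25 and those called lower 0 of 55 (limma, Benjamini-Hochberg adjusted p below 0.05, with day and slide as terms), where 15.6% of all features were called higher and 8.15% lower (23.8% in all). The difference was above 0 for 46 of the 55 genes (57.2% of all features), and it ranged between -0.48 for Rpl28 and 0.84 for Rps20. At day 3 the median was 0.22 (0.06 over all features), with 3 genes called higher (background 2.27%) and 1 lower (background 3.82%, 6.09% in all). At day 14 it was 0.20 (0.06 over all features), with 0 called by limma (0.294% higher and 0.108% lower over all features) and 25 genes at an unadjusted p below 0.05 (20.6% of all features). These medians are relative to the 75th percentile: scaled to 6 spike-in control probes instead, they were -0.36 at day 3, 0.14 at day 7 and -0.52 at day 14, with -0.50, -0.12 and -0.65 over all features. The comparisons with day 0 share the day 0 arrays.

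**Figure D1:**
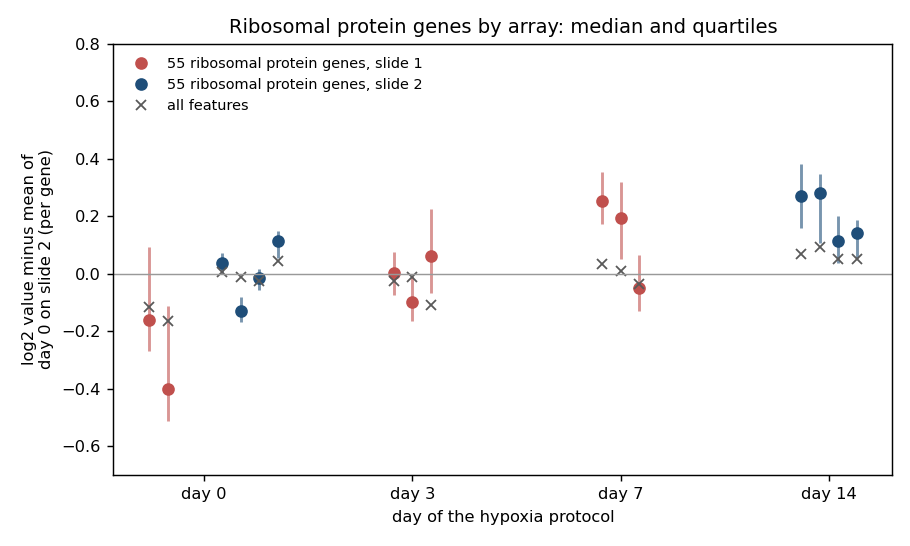
Each circle is 1 array: the median over the 55 ribosomal protein genes of the log2 value, set per gene to its mean on the 4 day 0 arrays of slide 2, with quartiles as a line and all features as a cross. On slide 1 the day 7 arrays stand at 0.25, 0.19 and -0.05, above both day 0 arrays of that slide at -0.16 and -0.40, while 2 of them exceed every day 0 array of slide 2.

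By array, the median of the members, set per gene to the mean of the slide 2 day 0 arrays, was -0.16 and -0.40 on the 2 day 0 arrays of slide 1. It was 0.004, -0.10 and 0.06 on the day 3 arrays and 0.25, 0.19 and -0.05 on the day 7 arrays of that slide. So all 6 arrays of days 3 and 7 stood above the day 0 arrays of their own slide. On slide 2 the median was 0.27, 0.28, 0.11 and 0.14 on day 14 arrays, against 0.04, -0.13, -0.02 and 0.12 on day 0 arrays. There 3 of the 4 day 14 arrays stood above all 4 day 0 arrays. Counting genes whose arrays did not overlap within a slide, 34 were higher and 3 lower at day 7 than at day 0 (33.5% and 21.6% of all features). The same count gave 31 and 2 at day 3 (24.7% and 18.4%) and 22 and 0 at day 14 (10% and 4.1%).

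Large subunit genes with the stalk had 16 called higher and 0 lower of 35 at day 7, with a median of 0.39. Small subunit genes had 9 higher and 0 lower of 20, with a median of 0.28. The stalk genes Rplp0, Rplp1 and Rplp2, whose proteins recruit elongation factors to the ribosome, had 0 called of 3, with differences of 0.16 ± 0.12, 0.07 ± 0.12 and 0.18 ± 0.12 (SE). The difference between the subunits was not tested.

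**Figure D2:**
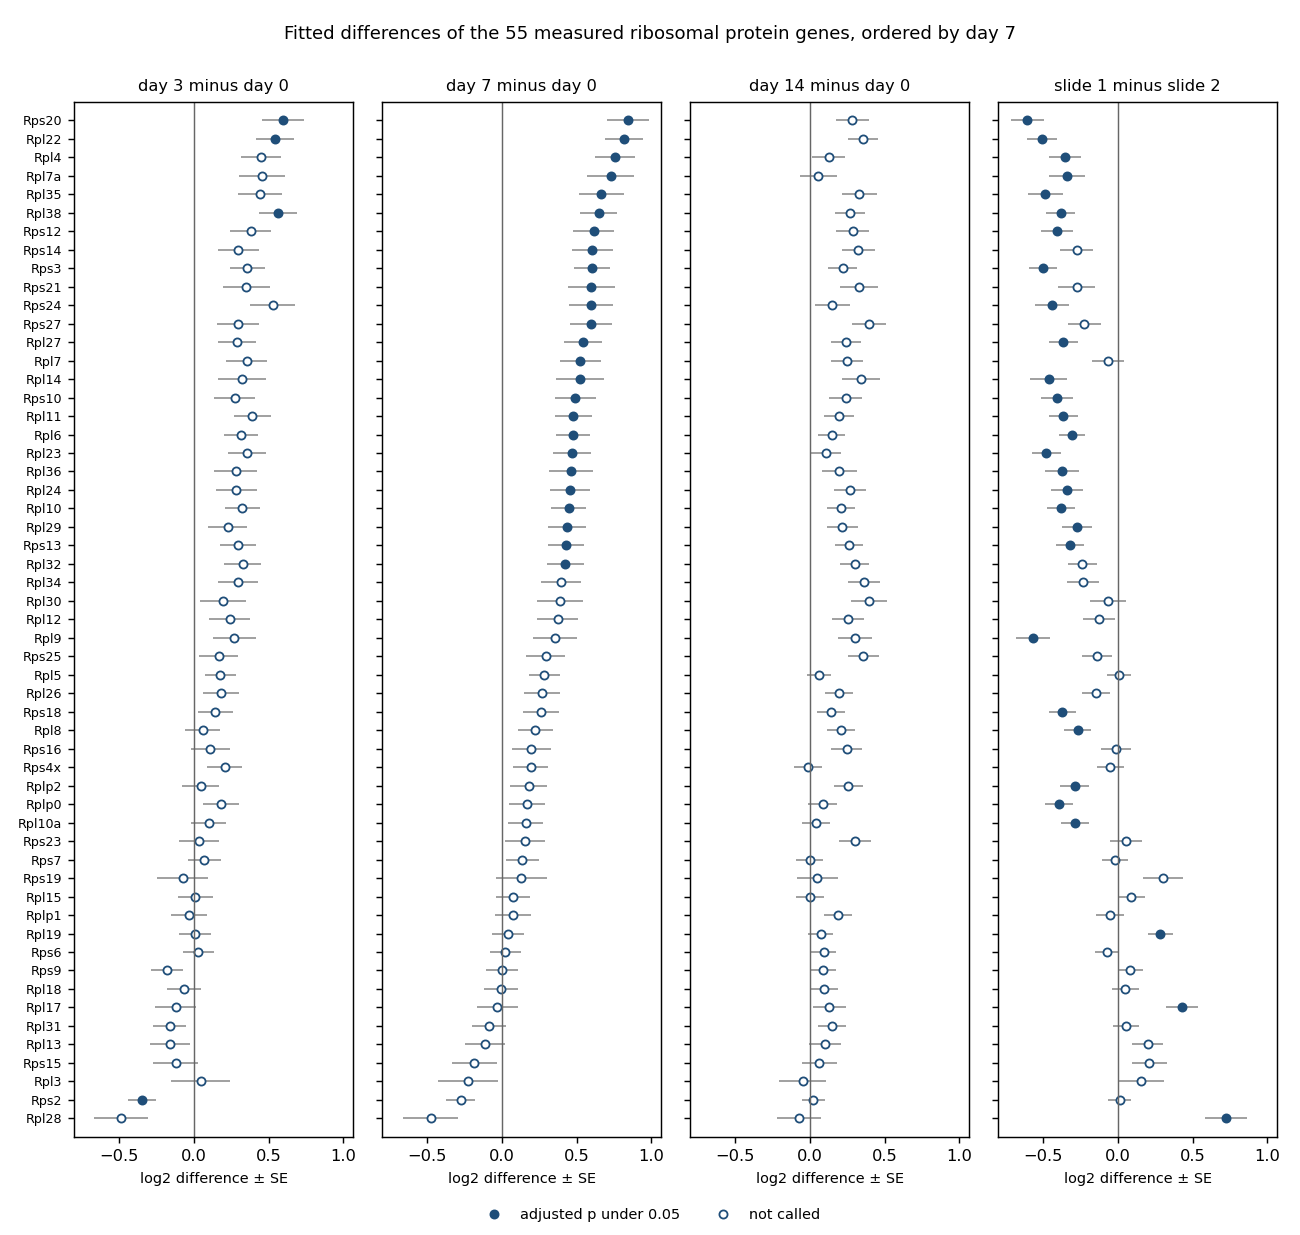
Fitted log2 difference ± SE for each of the 55 measured genes, ordered by the day 7 difference, in 4 panels: day 3, day 7 and day 14 minus day 0, and slide 1 minus slide 2. Filled circles passed an adjusted p of 0.05: 4 at day 3 (6.09% of all features), 25 at day 7 (23.8%), 0 at day 14 (0.402%) and 29 for the slide (32%).

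Rps20, a protein of the small subunit head, had the highest difference at day 7. On slide 1 it stood at 8.05 and 7.75 on day 0, 8.47, 8.59 and 8.43 on day 3, and 8.75, 8.98 and 8.49 on day 7. On slide 2 it stood at 8.89, 8.92, 8.71 and 8.65 on day 14 and at 8.51, 8.48, 8.49 and 8.55 on day 0. Within each slide the later arrays were all above day 0, but the day 3 arrays and 1 day 7 array (8.49) of slide 1 overlap the day 0 arrays of slide 2. The fitted difference was 0.60 ± 0.14 at day 3 (adjusted p = 0.0301) and 0.84 ± 0.14 at day 7 (adjusted p = 0.00329), a 1.79-fold level at day 7. It was 0.28 ± 0.11 at day 14 (adjusted p = 0.186). Rps20 also had the lowest slide term of the members, -0.61 ± 0.11 for slide 1 minus slide 2 (adjusted p = 0.00151).

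Rpl22 is a large subunit protein that also binds other RNAs, and that mice can live without, its paralogue Rpl22l1 being thought to replace it. Its slide 1 values were 6.20 and 6.13 on day 0, 6.70, 6.64 and 6.84 on day 3, and 7.10, 7.16 and 6.75 on day 7. On slide 2 it had 7.18, 7.12, 6.93 and 6.97 on day 14, against 6.69, 6.60, 6.73 and 6.77 on day 0. On each slide the later arrays were all above day 0, while days 3 and 7 overlapped. The day 3 arrays and 1 day 7 array (6.75) of slide 1 overlap the day 0 arrays of slide 2. The slide term of Rpl22 was -0.51 ± 0.10 (adjusted p = 0.00233). It rose by 0.54 ± 0.13 at day 3 (adjusted p = 0.0301, but -0.038 with spike-in scaling) and by 0.82 ± 0.13 at day 7 (adjusted p = 0.0024), and the day 14 difference of 0.36 ± 0.10 had an adjusted p of 0.102. Rpl22l1 was called higher at day 7 too, by 0.60 ± 0.18 (adjusted p = 0.0295), with a slide term of -0.63 ± 0.14 (adjusted p = 0.00513). On slide 1 Rpl22l1 had 4.74 and 4.42 on day 0 and 5.25, 5.32 and 5.11 on day 7. Its slide 2 day 0 arrays had 5.19, 5.11, 4.997 and 5.74, which overlap day 7.

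Rpl4 lines the exit tunnel of the large subunit through which the new protein leaves. It had 6.25 and 5.99 on day 0, 6.61, 6.63 and 6.47 on day 3, and 6.96, 7.05 and 6.61 on day 7 on slide 1. Slide 2 gave 6.65, 6.77, 6.52 and 6.47 on day 14 and 6.49, 6.46, 6.42 and 6.54 on day 0. All 3 day 7 arrays exceeded all 6 day 0 arrays of both slides, whereas day 14 overlapped day 0. The day 7 difference was 0.76 ± 0.14 (adjusted p = 0.00381), and day 14 minus day 7 was -0.63 ± 0.16 (adjusted p = 0.0548).

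Rpl38, which in mouse embryos is needed for the translation of a subset of Hox messenger RNAs, had 7.48 and 7.20 on day 0, 7.88, 7.92 and 7.93 on day 3, and 8.14, 8.05 and 7.78 on day 7 on slide 1. Slide 2 values were 8.19, 8.03, 7.88 and 7.90 on day 14, against 7.80, 7.64, 7.73 and 7.76 on day 0. The arrays of each later day lay above day 0 of their own slide, but 1 day 7 array (7.78) of slide 1 overlaps the day 0 arrays of slide 2. The slide term of Rpl38 was -0.38 ± 0.10 (adjusted p = 0.0106). Rpl38 had the smallest adjusted p of the members at day 3 (0.56 ± 0.13, adjusted p = 0.027, but -0.0025 with spike-in scaling), and at day 7 it was higher by 0.65 ± 0.13 (adjusted p = 0.00477). Rpl7a, a large subunit gene, had a day 7 difference of 0.73 ± 0.16 (adjusted p = 0.00666) and a day 14 difference of 0.05 ± 0.12. Rps14, of the small subunit platform, and Rps27, also of the small subunit, were higher at day 7 by 0.60 ± 0.14 (adjusted p = 0.00912) and 0.59 ± 0.14 (adjusted p = 0.0106). Over the 3 differences from day 0 together, 14 of 55 genes passed limma's F-test (17% of all features), with Rpl22, Rps20, Rpl38 and Rpl4 at the lowest p.

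Several members did not follow. Rps2, whose protein lies at the entry of the messenger RNA channel, had 7.78, 7.73 and 7.68 on day 3 arrays, against 8.18 and 8.02 on day 0 arrays of slide 1. On day 7 arrays it had 7.87, 7.74 and 7.80, and on slide 2 it had 8.14, 8.16, 7.98 and 8.09 on day 14 against 8.14, 8.08, 7.97 and 8.09 on day 0. All day 3 and day 7 arrays were below all 6 day 0 arrays, and day 14 overlapped day 0. Rps2 fell by 0.35 on the log2 scale at day 3 (SE 0.10, adjusted p = 0.0475), while at day 7 the difference of -0.28 ± 0.10 had an adjusted p of 0.0506. Its slide term was 0.01 ± 0.07.

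Rpl28, a large subunit protein without a bacterial counterpart, had 6.54 and 6.52 on day 0, 6.16, 5.73 and 6.30 on day 3, and 6.27, 5.88 and 6.07 on day 7 on slide 1. On slide 2 it had 5.86, 5.65, 5.58 and 5.92 on day 14, against 5.99, 5.57, 5.77 and 5.98 on day 0. Its day 0 samples thus read higher on slide 1 than on slide 2, the opposite of most members. The day 7 difference was -0.48 ± 0.18 (adjusted p = 0.071) and the slide term 0.72 ± 0.14 (adjusted p = 0.00241).

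Rps6, the substrate of the S6 kinases downstream of mTOR, had 6.84 and 6.67 on day 0, 6.82, 6.73 and 6.85 on day 3, and 6.81, 6.85 and 6.70 on day 7 on slide 1. On slide 2 it had 7.04, 7.00, 6.86 and 6.84 on day 14 and 6.88, 6.74, 6.79 and 6.97 on day 0. The groups overlapped on both slides. The differences from day 0 were 0.03 ± 0.10, 0.02 ± 0.10 and 0.09 ± 0.08 at days 3, 7 and 14. Rpl5 and Rpl11, which form a particle with the smallest ribosomal RNA of the large subunit and can bind Mdm2 when ribosome assembly is disturbed, differed by 0.28 ± 0.10 (adjusted p = 0.0598) and 0.48 ± 0.12 (adjusted p = 0.0155) at day 7. Rpl10, which joins the large subunit late in its maturation, was higher by 0.45 ± 0.12 (adjusted p = 0.0169). The slide terms of Rpl11 and Rpl10 were -0.37 ± 0.10 (adjusted p = 0.0122) and -0.38 ± 0.09 (adjusted p = 0.00754). Without the slide 1 day 0 arrays, Rpl11 differed by 0.11 ± 0.11 (adjusted p = 0.526) and Rpl10 by 0.06 ± 0.10 (adjusted p = 0.704) at day 7. Rps19, the gene most often mutated in human Diamond-Blackfan anaemia, differed by 0.13 ± 0.17 (adjusted p = 0.636).

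Rpl3 lies near the catalytic centre, and striated muscle has its own paralogue, Rpl3l, which replaces it in part of the ribosomes. Rpl3 had 5.09 and 4.87 on day 0, 4.84, 4.60 and 5.57 on day 3, and 4.77, 4.69 and 4.72 on day 7 on slide 1. One day 3 array, of RNA sample 4, stood above the rest. Rpl3l had 6.76 and 6.59 on day 0, 6.23, 6.27 and 5.77 on day 3, and 6.26, 6.15 and 6.27 on day 7, with all 6 later arrays below both day 0 arrays of slide 1. Rpl3l was called lower at day 3 (-0.61 ± 0.15, adjusted p = 0.0374) and at day 7 (-0.48 ± 0.15, adjusted p = 0.0393). On slide 2, Rpl3l had 6.08, 6.04, 6.10 and 6.08 on day 14, against 6.24, 6.11, 6.03 and 6.51 on day 0, which overlap. Its slide term was 0.47 ± 0.12 (adjusted p = 0.0101).

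**Figure D3:**
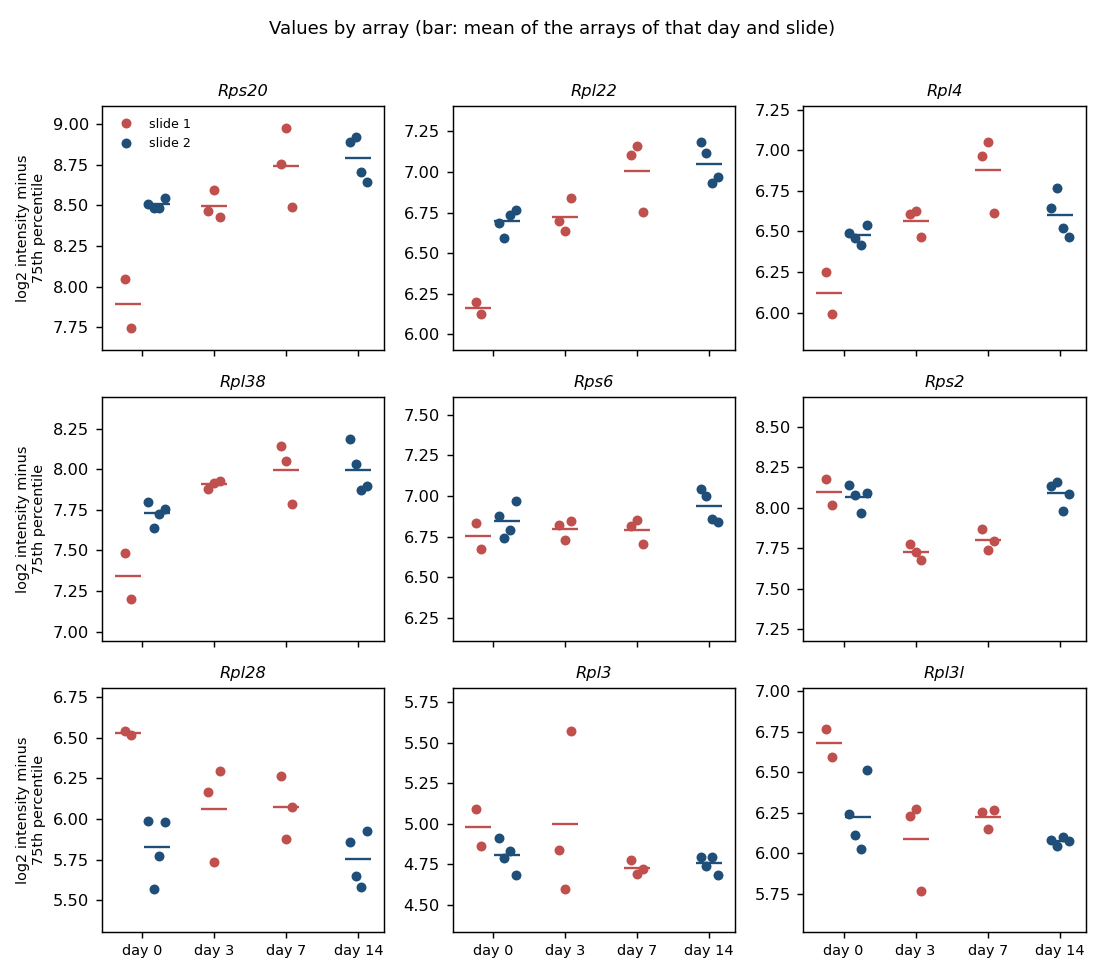
Log2 intensity minus the array's 75th percentile for 8 members and the paralogue Rpl3l, 1 point per array (red slide 1, blue slide 2), with a bar at the mean of that day and slide; each panel spans 1.5 log2 units. The day 0 samples of slide 1 lie below those of slide 2 for Rps20, Rpl22 and Rpl38, and above them for Rpl28.

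How many genes were called at day 7 depended on how the slide was treated. The slide term, slide 1 minus slide 2, had a median of -0.27 over the members and -0.14 over all features, with 3 members called higher (Rpl17, Rpl19 and Rpl28, background 11%) and 26 lower (background 21.1%, 32% in all). Its direction depended on the processing: the members' median was 0.025 with arrays scaled to their medians, 0.31 with normexp background correction and 0.87 with spike-in scaling. The same-numbered day 0 samples read on both slides show it directly. In RNA sample 1 the median of slide 1 minus slide 2 was -0.20 over the members, with 36 of 55 lower on slide 1 (61.3% of all features, median -0.11). In RNA sample 2 it was -0.26, with 42 of 55 lower (61.8% of all features, median -0.15).

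Without a slide term, 7 members were called higher at day 7 and 1 lower (9.14% and 5.71% of all features), and the median was 0.23. Without the 2 day 0 arrays of slide 1, after which day and slide cannot be told apart, 5 were higher and 1 lower (7.46% and 10.1%), and the median was 0.15. On slide 1 alone, where 3 day 7 arrays meet 2 day 0 arrays, 6 were higher and 0 lower (5.66% and 3.79%), with a median of 0.40. Rpl4 was called higher at day 7 in all 4 of these fits, with differences of 0.76, 0.53, 0.40 and 0.76 and adjusted p of 0.00381, 0.0184, 0.0338 and 0.0435 in the order given. Rpl7 was called in 3 of the 4 and had an adjusted p of 0.0731 on slide 1 alone (0.56 ± 0.18). Rpl22 was also called in 3 of the 4, and differed by 0.31 ± 0.11 without the slide 1 day 0 arrays (adjusted p = 0.0814). Rps20 was called with the slide term and on slide 1 alone, and differed by 0.45 ± 0.16 without a slide term (adjusted p = 0.0747) and by 0.23 ± 0.12 without the slide 1 day 0 arrays (adjusted p = 0.184).

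Rps2 was lower in all 4 fits at day 7, with differences of -0.28, -0.28, -0.27 and -0.30 and adjusted p of 0.0506, 0.0356, 0.045 and 0.152. Rpl28 kept no direction: its day 7 difference was 0.25 ± 0.16 without the slide 1 day 0 arrays. At day 3, 0 members were called higher without a slide term, without the slide 1 day 0 arrays, or on slide 1 alone. Of all features, 0.497%, 2.30% and 0% were called higher in these fits. Rps20 stood at -0.010 ± 0.12 in the second of them. At day 14 the call went the other way: 19 members were called higher without a slide term (9.11% of all features). With slide 2 alone 0 were called higher (0.0045% of all features), and the median was 0.20 as in the fit over both slides. Leaving out day 0 RNA sample 2 left 0 members called at day 7, where 0.235% of all features were called higher and 0.248% lower. It also left 0 at day 3 (0.0135% and 0.0316%). Leaving out day 0 RNA sample 1 left 15 called higher at day 7 (8.1% of all features) and 0 called at day 3 (0.181% higher and 0.244% lower). The calls of all features thus fell with those of the members. Leaving out day 7 RNA samples 1, 2 and 4 in turn left 14, 12 and 31 called higher at day 7, where 9.4%, 7.74% and 17.7% of all features were called higher.

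**Figure D4:**
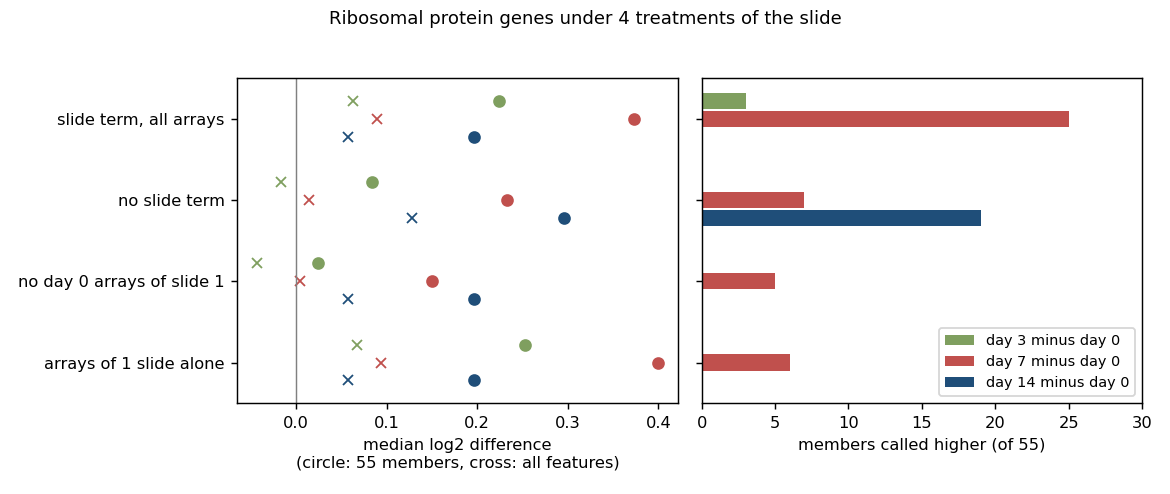
Left, median log2 difference from day 0 over the 55 members (circle) and over all features (cross) at days 3, 7 and 14 under 4 treatments of the slide; right, members called higher in each. The day 7 count is 25 with a slide term over all arrays (15.6% of all features called higher). It is 5 to 7 in the other fits (5.66% to 9.14% of all features). The day 14 count is 19 only in the fit without a slide term (9.11% of all features).

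Days 3 and 7 lie on the same slide, and their difference does not use day 0. There the median of the members was 0.12 (0.05 over all features), 50 of 55 differences were above 0 (57.8% of all features), and limma called 0 (0.447% higher and 0.23% lower over all features), with 6 genes at an unadjusted p below 0.05 (15%). Quantile normalization gave a median of -0.010 there. No gene had all day 7 arrays on one side of all day 3 arrays, where 11.2% of features were higher and 6.06% lower in that way. The smallest p of the higher members belonged to Rpl4 (0.31 ± 0.13, adjusted p = 0.271), Rps14 and Rpl22. The lower members with the smallest p were Rpl3 (-0.27 ± 0.18), Rps15 and Rplp0.

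Between day 14 and day 7, which lie on different slides, the median was -0.12 (-0.04 over all features), with 17 of 55 differences above 0 (46.6% of all features). Limma called 0 (1.12% higher and 1.18% lower, 2.3% in all, over all features) and 10 genes had an unadjusted p below 0.05 (22.1%). Rpl4 (-0.63 ± 0.16), Rpl7a (-0.67 ± 0.18, adjusted p = 0.0645) and Rps20 (-0.56 ± 0.16, adjusted p = 0.0798) had the smallest p among lower genes. Rps2 (0.30 ± 0.11, adjusted p = 0.14), Rpl28 and Rpl31 led the higher ones. Without the slide 1 day 0 arrays the median turned to 0.065, with 3 genes called higher (Rpl9, Rplp2 and Rps2, where 12.6% of all features were called higher).

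Different probes of a gene did not always read alike. Of the 55 genes, 36 had more than 1 kept probe, and in 11 of these another probe had a day 7 difference of opposite sign. Among the 25 called higher, 18 had more than 1 probe and 4 had one of opposite sign: -0.04 for Rpl27, -0.13 for Rpl29, -0.13 for Rpl7a and -0.01 for Rps3. Rpl17, with 7 probes, had -0.03 at its brightest and 0.05 to 0.68 at the other 6. Many ribosomal protein genes have processed pseudogenes of near-identical sequence in mice, and whether a probe also reads those was not tested.

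Other genes of the translation machinery were read beside the members, at day 7 against day 0 and in the same fit. Over all features 15.6% were called higher and 8.15% lower there, with a median of 0.09. The 23 cytosolic ribosomal protein genes outside the 56 had 11 called higher and 0 lower, with a median of 0.36. Rpl36a (0.78 ± 0.14, adjusted p = 0.00376) and Rps27a, which is made as a fusion with ubiquitin (0.64 ± 0.12, adjusted p = 0.00448), had the smallest p. Of 10 paralogues 6 were measured, with 3 higher (Rpl22l1, Rpl36al and Rps27l) and 1 lower (Rpl3l). Mitochondrial ribosomal proteins, a separate set that translates the mitochondrial genome, had 17 higher and 8 lower of 77, with a median of 0.13. Mrps18c rose by 0.82 ± 0.14 (adjusted p = 0.00348) and Mrpl38 fell to a 0.499-fold level (SE 0.19 on the log2 scale, adjusted p = 0.0047).

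Translation initiation factors had 13 higher and 2 lower of 37 (15.6% and 8.15% over all features), with a median of 0.28. Eif2s2, the beta subunit of the factor that brings the initiator tRNA, was higher by 0.74 ± 0.15 (adjusted p = 0.0054), and Eif3j1 by 0.67 ± 0.12 (adjusted p = 0.00402). The 2 lower ones were Eif6, which keeps the large subunit from joining (-0.52 ± 0.16, adjusted p = 0.0333), and Eif2b5 (-0.44 ± 0.14, adjusted p = 0.0396). Elongation and release factors had 0 higher and 3 lower of 14, with a median of -0.10: Eef1a2, the muscle and neuron form of the factor that delivers aminoacyl-tRNA, Eif5a and Eef1g. The messenger RNAs of Eef1a1 and Eef2 carry the same tract at their start as those of ribosomal proteins. Eef1a2 had 6.64 and 6.63 on day 0, 5.46, 5.26 and 5.31 on day 3, and 5.32, 4.56 and 5.83 on day 7 of slide 1, against which its slide 2 day 0 arrays had 5.03, 4.82, 4.71 and 4.49. Its day 7 difference was -1.33 ± 0.30 (adjusted p = 0.00864) and its slide term 1.80 ± 0.24 (adjusted p = 0.000191), so its day 0 level differed more between slides than between days. Eef1a1 (-0.15 ± 0.20) and Eef2 (-0.11 ± 0.12) were not called.

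Ribosome biogenesis factors had 12 higher and 9 lower of 53, with a median of 0.13. The nucleolar chaperone Npm1 was higher by 0.77 ± 0.15 (adjusted p = 0.00448), Ddx10 by 0.67 ± 0.13 (adjusted p = 0.00475), and Ncl differed by 0.22 ± 0.11 (adjusted p = 0.164). Subunits and factors of RNA polymerases I and III, which transcribe ribosomal and transfer RNA, had 7 higher and 4 lower of 31, with a median of 0.06. Polr3d differed by -0.86 ± 0.12 (adjusted p = 0.00181), with a slide term of 0.83 ± 0.09 (adjusted p = 6.8e-05). On slide 1 Polr3d had 1.58 and 1.69 on day 0 and 0.79, 0.72 and 0.95 on day 7. Its slide 2 day 0 arrays had 0.80, 0.69, 0.92 and 0.999, which overlap day 7. Polr3k rose by 0.67 ± 0.11 (adjusted p = 0.0027). Genes of growth signalling to translation had 7 higher and 3 lower of 29, with a median of 0.12. Rps6kb1, the S6 kinase, was higher by 0.87 ± 0.17 (adjusted p = 0.00481), Larp1 by 0.66 ± 0.14 (adjusted p = 0.0059) and Eif2ak4, the kinase that senses uncharged tRNA, by 1.12 ± 0.19 (adjusted p = 0.00348). Mtor (-0.15 ± 0.13, adjusted p = 0.467) was not called, nor was Myc, a driver of ribosomal genes (-0.59 ± 0.21, adjusted p = 0.0536).

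**Figure D5:**
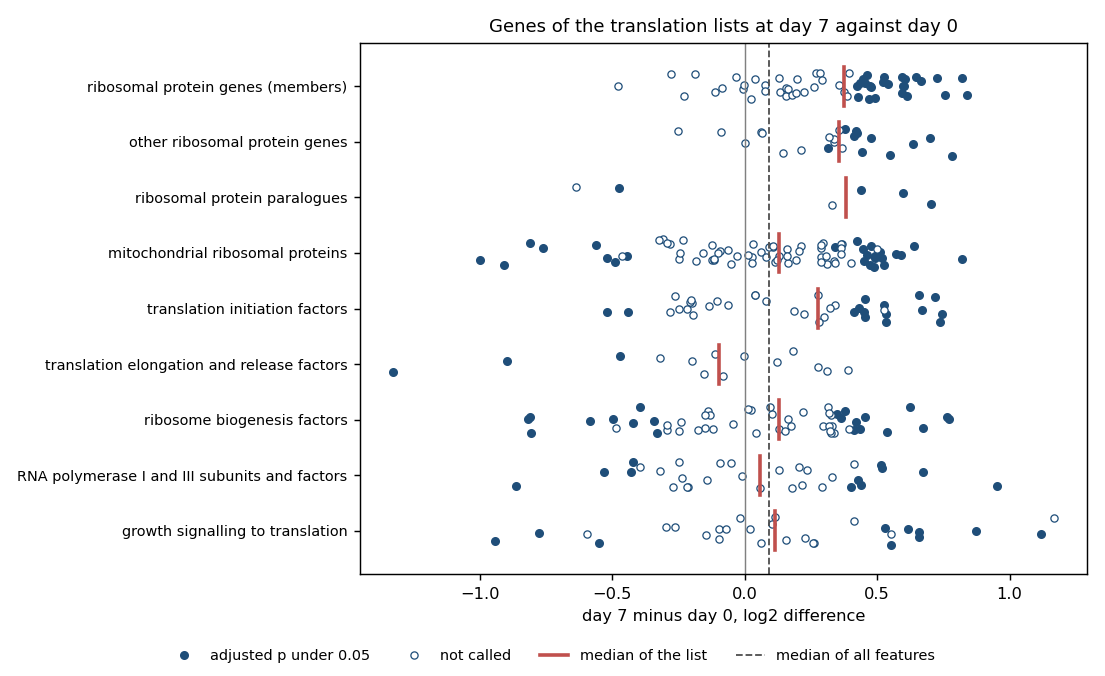
Each point is a gene: its log2 difference, day 7 minus day 0, for the 55 members and 8 lists of genes of translation, filled where the adjusted p was below 0.05, with the median of each list as a bar and that of all features as a dashed line. The members' median of 0.37 stands to the right of the dashed line at 0.09, and the elongation and release factors' median of -0.10 to its left.

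Markers of other cell types moved with the day as well, where 15.6% of all features were called higher and 8.15% lower at day 7. At day 7, 4 of 7 macrophage markers were called lower, with a summed linear level of 13.2 to 14.9 on day 7 arrays and 20.4 to 28.6 on the day 0 arrays of slide 1. Of 3 neutrophil markers 2 were lower (0.378 to 0.632 on day 7 arrays, 2.24 to 5.48 on day 0 arrays of slide 1). Of 4 fast fibre markers 1 was higher, with sums of 205 to 1580 on day 7 arrays and 84.9 to 252 on day 0 arrays of slide 1. Of 5 endothelial markers 2 were lower, with sums of 25.6 to 28.2 on day 7 arrays and 27.0 to 28.7 on those day 0 arrays. Of 3 satellite cell markers 1 was lower (5.86 to 7.53 on day 7 arrays, 7.71 to 8.45 on those day 0 arrays). Of 5 fibroblast and matrix markers 1 was higher and 1 lower (406 to 670.4 on day 7 arrays, 499 to 530.2 on those day 0 arrays), and 2 of the 11 soleus markers were lower. None of the measured erythroid, adipocyte or lymphocyte markers was called at day 7 by limma. On slide 2 the erythroid sum was 580 to 1165 on day 14 arrays and 197 to 282 on day 0 arrays. Spike-in level minus the 75th percentile spanned 3.21 to 4.35 over the slide 1 arrays, against 4.60 to 6.37 over those of slide 2. The part of these in the ribosomal protein gene values was not tested.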

How the data were processed

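Soleus RNA was read on 1-colour (Cy3) Agilent arrays. Per the file headers, the deposited intensity values came from Agilent Feature Extraction 11.0.1.1, corrected for local background and spatial trends but not scaled between arrays; the quality flags, another deposited column type, were used as given. The deposited series table also holds an intensity per spot, whose steps are not given in the sources used here, and it served as an alternative.

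From these, log2 intensity was taken minus each array's 75th percentile over 59305 non-control spots, outlier-flagged spots were left out, and spots of a probe were averaged. A probe was kept if at least 3 of 16 arrays read it well above background (29479 probes). Probes matched to no gene were grouped by the name listed for them. The brightest probe of each gene or such name gave 22145 features, 14107 of them matched to a gene. Limma 3.58.1 in R 4.3.3 was fitted to all arrays with day and slide as fixed terms and RNA sample as a random block (duplicateCorrelation, estimated correlation 0.448), 2-sided, with Benjamini-Hochberg adjustment over all features. The fits that leave out day 0 RNA sample 1 or 2 used the correlation of the fit to all arrays. Pathway lists are described by counts and medians, with no test of a list. The named genes were, by rule, the 3 members with the smallest p in each direction of each of 5 comparisons, the 4 with the smallest F-test p, fixed members, fixed genes beside them, and the 2 genes with the smallest p at day 7 in each list. Rpl7, Rpl9, Rpl17, Rpl19, Rpl27, Rpl29, Rps3, Larp1, Mtor, Eef1g, Eif6 and Eif2b5 are outside that rule and were named after their values were seen. Members and lists were chosen with earlier results of these data known. The method was tested on simulated data. The normexp alternative (offset 50) used the median spot signal in place of the mean signal. Other alternatives were other scalings, probe filters and probe summaries, an intensity trend, a replicate block, other treatments of the slide and leaving out each RNA sample; spike-in scaling was added after the data were seen.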

Additional observations from a re-analysis of the deposited data

Results flagged for a closer look

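Among 23 named members and the median of the members, each with 4 RNA samples on slide 2 at day 14 and at day 0, 48 groups were checked for a sample far from the other 3, and 2 were found, where chance gives about 1 in 20. Rpl7a at day 14 was 6.682 in RNA sample 4, against 6.89 to 6.905 in the other 3. Rps14 at day 0 was 8.626 in RNA sample 2, against 8.812 to 8.849 in the other 3.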

How the results depend on the processing

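Of 316 summary values recomputed under alternatives, 251 stayed within 1.5 times the reported count or 1 SD between replicates (0.107) of the reported median, and 65 moved. The cause was not tested. Counts of members in this paragraph and the next stand without the share of all features beside them. They show how far a count moved, and not whether members differed from other features. Day 3 against day 0: 0 members were called with no slide term, with slide 1 alone, with median scaling, with no probe filter and with spike-in scaling, 1 (lower) without the slide 1 day 0 arrays, 11 with normexp, 10 with the series table, 10 with probes above background on all arrays, 9 with quantile normalization and 9 with an intensity trend. Its median was 0.083 with no slide term, 0.024 without the slide 1 day 0 arrays and -0.36 with spike-in scaling. Day 7 against day 0: 8 were called with no slide term, 6 without the slide 1 day 0 arrays, 6 with slide 1 alone and 0 with spike-in scaling. Its median was 0.23, 0.15 and 0.14 in the first, second and last of these, 0.215 with quantile normalization, 0.50 with median scaling and 0.20 with the series table. Day 14 against day 0: 19 were called with no slide term, and the median was 0.0505 with normexp, 0.0498 with the series table and -0.52 with spike-in scaling. Day 7 against day 3: the median was -0.010 with quantile normalization and 0.47 with spike-in scaling. Day 14 against day 7: 3 were called without the slide 1 day 0 arrays, 14 with normexp, 2 with quantile normalization, 6 with median scaling, 4 with the series table, 4 with probes above background on all arrays and 3 with an intensity trend. Its median was 0.065 with no slide term, 0.065 without the slide 1 day 0 arrays, -0.35 with median scaling and -0.61 with spike-in scaling. Slide 1 against slide 2: 10 were called with median scaling, 18 with the mean of all kept probes and 54 with spike-in scaling, and the median was 0.31 with normexp, -0.145 with quantile normalization, 0.025 with median scaling, -0.11 with the series table, -0.12 with the mean of all kept probes and 0.87 with spike-in scaling. Of 324 values of called named members under these alternatives 3 reversed, all at day 3: Rps20 to -0.010 without the slide 1 day 0 arrays, and Rpl22 to -0.038 and Rpl38 to -0.0025 with spike-in scaling, under which none of these members was called. Others did not reverse but were counted as weaker. These were all 12 without day 0 RNA sample 2 and 10 with spike-in scaling. They were 9 without the slide 1 day 0 arrays, 8 with no slide term and 8 on slide 1 alone.

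Leaving out each RNA sample in turn gave 0 to 8 called at day 3 against day 0 (medians 0.14 to 0.33), 0 to 31 at day 7 against day 0 (0.26 to 0.45), 0 at day 14 against day 0 (0.15 to 0.23), 0 at day 7 against day 3 (0.08 to 0.20), 0 to 5 at day 14 against day 7 (-0.21 to -0.07) and 0 to 30 for slide 1 against slide 2 (-0.34 to -0.21). The slide count of 0 came without day 0 RNA sample 2, and it was 11 without sample 1. At day 3, the count was 0 without day 3 RNA sample 2, 1 without day 3 sample 1 and 8 without day 7 sample 4. Same-numbered samples of different days correlated at -0.145 to 0.169. Between day 14 and day 0 the range was 0.0307 to 0.122, and 3 of 4 pairs correlated best with their own number. In each other pair of days 0 or 1 of 3 did. The numbers were not taken to pair samples in the main fit. With the replicate number as a replicate block, 25 members were called at day 7 against day 0 (23 higher and 2 lower), 4 at day 3 against day 0, 0 at day 14 against day 0 and at day 7 against day 3, 1 (lower) at day 14 against day 7 and 37 for the slide.

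Only 2 day 0 samples tie the slides together, and slide 2 is dimmer and has fewer spots above background, which limits what it can show for dim probes. Median scaling and spike-in scaling move the median of all features by over 0.1 in most comparisons; at day 7 against day 0 it was 0.22 and -0.12 with them.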
